A study of Homo sapiens with 54 samples.

Results

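The response to cisplatin (CDDP) alone was compared between 2 triple negative breast cancer (TNBC) lines, SUM1315 and MDA-MB-468. Of the 54 libraries in the series, 12 were compared: 3 of untreated SUM1315 cells, 3 of SUM1315 cells given 4 µM CDDP, 3 of untreated MDA-MB-468 cells and 3 of MDA-MB-468 cells given 2.5 µM CDDP. These were the libraries of parental cells without olaparib that were untreated or had the higher CDDP dose of their line. SUM1315 carries a BRCA1 mutation, MDA-MB-468 is BRCA1 wild type, and the study describes both as p53 mutant. Cells were treated overnight. Sequencing covered transcript 3′ ends. Each line differs from the other in far more than BRCA1, and the doses were not equal, so effects of line, genotype and dose cannot be told apart. Expression was compared within each line first, and only the 2 within-line changes were set against each other.

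CDDP binds purine bases and forms crosslinks within and between DNA strands. Crosslinks stall replication forks and elongating RNA polymerase, and are removed by nucleotide excision repair, by the Fanconi pathway and by homologous recombination. In cells with working p53, the damage induces arrest genes such as CDKN1A. E2F factors drive genes of the G1/S transition and replication, whereas genes of G2 and mitosis are read by a separate set of factors later in the cycle.

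Values are adjusted read counts, which are reads per gene that the authors had scaled to a common library size. The 12 libraries held 5420890 to 8222127 reads, with a median of 6006856.5 in SUM1315 and 7497829 in MDA-MB-468. SUM1315 control replicate 3 stood apart from the other control replicates, at 13.9 and 18.4 in chi-square over degrees of freedom, where 1 is sampling noise, while the other pairs of replicates had 2.41 to 3.83. RPL27A read 10900 CPM there against a mean of 6660 in the other control replicates, and ACTG1 read 1500 against 3410. The labels do not say that replicates came from separate cultures, so p-values measure the spread between libraries only. That spread was taken over all 27 libraries of a line, or all 54 for the interaction, including cells given olaparib. Of the breast epithelial markers, SUM1315 held almost no EPCAM (0 to 4.61 in its 6 libraries), CDH1 (0 to 0.92), KRT19 (0 to 4.56) or KRT5, but held KRT7 (1180 to 1710), KRT17 (629 to 1610), KRT18 (335 to 598) and EGFR (686 to 963). It held 11500 to 12500 of the mesenchymal intermediate filament VIM. MDA-MB-468 had 2640 to 3070 of EPCAM and 16.5 to 53.8 of VIM. The hormone receptor PGR was at 0 to 3.09 in SUM1315 and listed at 0 in MDA-MB-468, ESR1 was at 2.37 to 25.6 and 38.2 to 74.4, and ERBB2 at 16.6 to 33.9 and 16.1 to 59.2. Of the blood and endothelial markers, CD3E and HBB were at 0 in all 12 libraries, CD68 reached 12.7, and PECAM1 was at 118 to 194 in SUM1315 and 6.03 to 16.4 in MDA-MB-468.

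CDDP changed many more genes in SUM1315 than in MDA-MB-468. A differentially expressed gene (DEG) was one whose limma adjusted p did not exceed 0.05 and whose level changed at least 2-fold. Of 27470 genes in the table, 13133 in SUM1315 and 13012 in MDA-MB-468 were expressed enough to test. SUM1315 had 2022 DEGs (15.4%), of which 951 were higher (7.24%) and 1071 lower (8.16%) with CDDP. MDA-MB-468 had 337 (2.59%), of which 213 were higher (1.64%) and 124 lower (0.953%). The median log2 fold change over all genes tested was -0.003 in SUM1315 and 0.009 in MDA-MB-468. Without the 2-fold limit, 43.9% of genes passed in SUM1315 and 25.1% in MDA-MB-468. Without SUM1315 control replicate 3 the DEGs of SUM1315 were 1674, and with 2 µM CDDP they were 1155. In bulk RNA, fewer cells with a transcript and less of it per cell cannot be told apart.

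Of the DEGs, 1629 of SUM1315 and 253 of MDA-MB-468 were genes tested in both lines, and 110 were DEGs of both. These were 6.75% of the SUM1315 and 43.5% of the MDA-MB-468 genes. The 110 divided into 52 higher in both lines, 42 lower in both and 16 that were lower in SUM1315 and higher in MDA-MB-468. No gene was a DEG that was higher in SUM1315 and lower in MDA-MB-468 by limma, and 2 were by edgeR and 2 by DESeq2 on recovered reads. By limma, 184 genes had that pattern without the 2-fold limit, and 2 had it past 2-fold at an unadjusted p under 0.05. Of the 84 genes that fell in MDA-MB-468, 50% also fell in SUM1315, and of the 169 that rose, 30.8% also rose there. Among all 11755 genes tested in both lines, 799 were lower and 830 higher DEGs in SUM1315. Across the 11755 genes tested in both lines, the log2 fold changes had a Pearson correlation of 0.282 (Spearman 0.259), a description over genes that share libraries. Among the 94 genes that moved the same way, the change was larger in SUM1315 for 71.

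**Figure D1:**
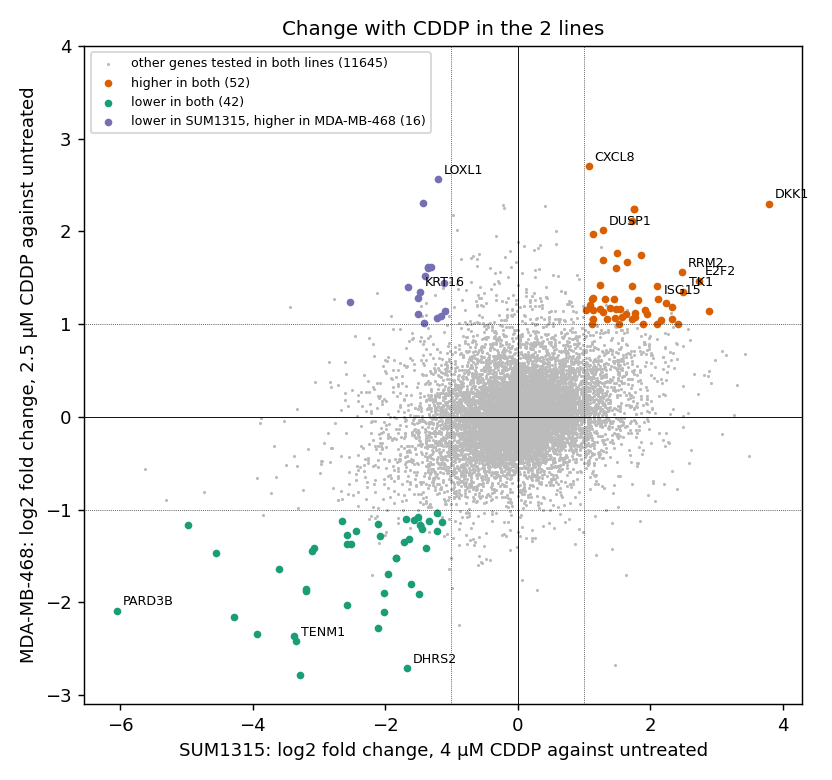
Log2 fold change with CDDP in SUM1315 (x axis) against MDA-MB-468 (y axis) for 11755 genes, 1 point each, with dotted lines at a 2-fold change. The 110 DEGs of both lines fill the upper right (52 genes), lower left (42) and upper left (16) corners, and the lower right corner holds none.

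Of the 52 genes that rose in both lines, 7 were in the list of G1/S and replication genes (RRM2, E2F2, UHRF1, CCNE2, CDC6, CDT1 and CDC45). That list was chosen with earlier results of these data known, and held 29 of the 11755 genes tested in both lines. By the smaller of the 2 changes, the highest were 6 genes whose mean was under 30 in at least 1 line, DKK1, LINP1, RAET1G, SNORA26, SNORA19 and ZNF695. RRM2, the regulated subunit of ribonucleotide reductase, lies at chr2:10122568-10211010 (GRCh38). It had 303, 328 and 249 adjusted reads in untreated SUM1315 libraries and 1730, 1600 and 1560 with CDDP. In MDA-MB-468 it had 1860, 1890 and 2030 without and 5760, 5620 and 5610 with CDDP, so no treated library overlapped an untreated one in either line. Such separation by itself was common, in SUM1315 at 52.8% and in MDA-MB-468 at 39% of genes tested. The log2 fold changes of RRM2 were 2.48 ± 0.10 (SE, n = 3 against 3, limma adjusted p = 2.21e-19) and 1.56 ± 0.05 (limma adjusted p = 1.27e-29). TK1, the thymidine kinase of S phase, rose by 2.50 ± 0.10 (SE) in SUM1315, from 155, 145 and 164 to 916, 848 and 882. In MDA-MB-468 it went from 476, 478 and 505 to 1210, 1250 and 1280, a log2 fold change of 1.35 ± 0.07.

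E2F2, an activating E2F factor, rose from 40.1, 50.7 and 61.9 to 352, 319 and 350 in SUM1315 and from 284, 271 and 269 to 738, 827 and 729 in MDA-MB-468. Its log2 fold changes were 2.74 ± 0.22 and 1.47 ± 0.08 (SE). POLA2, a subunit of the primase complex that starts new DNA strands, had 78.1, 70.5 and 87.8 untreated reads in SUM1315 and 334, 252 and 258 with CDDP. Its MDA-MB-468 values were 323, 273 and 245 without and 661, 656 and 688 with CDDP. CDC6, which loads the replicative helicase at origins, rose by 1.58 ± 0.09 and 1.08 ± 0.07 on the log2 scale. CDC45, part of that helicase, rose by 2.89 ± 0.17 and 1.14 ± 0.13. The licensing factor CDT1, the phosphatase CDC25A, the cyclin CCNE2 and the origin subunit ORC6 were also higher in both lines.

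The 250 bases before the RefSeq start of E2F2, POLA2 and CDC6 are shown because all 3 rose in both lines and hold TTTGGCG, a core of E2F sites, in capitals. They lie at chr1:23531234-23531483 (- strand), chr11:65261712-65261961 (+ strand) and chr17:40287629-40287878 (+ strand) in GRCh38.p14, and are written 5′ to 3′ on the strand of the gene.
E2F2: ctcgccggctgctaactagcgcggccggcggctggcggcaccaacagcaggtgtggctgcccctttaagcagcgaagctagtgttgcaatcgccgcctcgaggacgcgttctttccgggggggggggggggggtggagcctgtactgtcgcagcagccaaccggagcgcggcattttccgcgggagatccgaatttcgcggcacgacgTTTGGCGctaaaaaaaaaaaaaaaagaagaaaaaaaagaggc
POLA2: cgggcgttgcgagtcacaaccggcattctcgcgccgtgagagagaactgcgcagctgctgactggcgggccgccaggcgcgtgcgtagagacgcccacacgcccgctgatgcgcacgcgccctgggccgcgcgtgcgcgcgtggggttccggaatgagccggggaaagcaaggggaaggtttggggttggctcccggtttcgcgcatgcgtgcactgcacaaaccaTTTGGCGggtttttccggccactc
CDC6: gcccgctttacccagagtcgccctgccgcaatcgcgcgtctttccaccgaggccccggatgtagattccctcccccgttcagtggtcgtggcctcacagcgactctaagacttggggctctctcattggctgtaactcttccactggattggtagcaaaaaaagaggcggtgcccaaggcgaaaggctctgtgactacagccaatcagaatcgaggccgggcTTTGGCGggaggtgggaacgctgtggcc
The match ends 35, 17 and 21 bases before the start of E2F2, POLA2 and CDC6. Searched on both strands, TTTGGCG was in 6 of the 37 genes higher in both lines that had a promoter in the table (16.2%), which were CDC25A, CDC45, CDC6, CDT1, E2F2 and POLA2. It was in 1 of 33 genes lower in both lines (3.03%) and in 246 of 8993 genes tested in both (2.74%). A match is a description of letters and not evidence of a bound factor.

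Few members of the stress and signalling lists rose in both lines. Among them were DUSP1 of the MAPK feedback genes, FOSL2 and ATF3 of the immediate early genes, and CXCL8 of the NF-κB targets. DUSP1, a phosphatase that inactivates MAP kinases, went from 205, 175 and 131 to 370, 445 and 422 in SUM1315 and from 48.9, 43.2 and 68.6 to 219, 201 and 223 in MDA-MB-468. FOSL2, an AP-1 subunit, rose by a log2 fold change of 1.24 ± 0.15 in SUM1315 and 1.42 ± 0.19 in MDA-MB-468. ATF3, a stress-induced transcription factor, rose by 1.14 ± 0.18 and 1.97 ± 0.17. TUBB2A, a beta tubulin with a close copy in TUBB2B that could share reads, had 61.2, 80.5 and 34.4 in untreated SUM1315 and 252, 242 and 234 with CDDP. In MDA-MB-468 TUBB2A had 97.6, 134 and 116 untreated and 309, 256 and 367 with CDDP. Its interaction of 0.70 was not called without SUM1315 control replicate 3 (0.37), MDA-MB-468 CDDP replicate 2 (0.57) or MDA-MB-468 control replicate 2 (0.59). Nor was the TUBB2A interaction called with only the libraries compared. The Wnt inhibitor DKK1 rose by 3.80 ± 0.42 and 2.30 ± 0.21, with 0.87, 1.04 and 2.06 against 43, 29.2 and 22.6 in SUM1315 and 14.4, 16.5 and 16.1 against 65.3, 86.3 and 93.1 in MDA-MB-468. The interaction of DUSP1 was -0.71 and not called by limma (adjusted p = 0.0612), but was called by edgeR (-0.73) and DESeq2 (-0.74), with only the libraries compared (-0.71), and without SUM1315 control replicate 3 (-0.89) or MDA-MB-468 control replicate 3 (-0.90). At 2 µM CDDP in SUM1315, DUSP1 and FOSL2 had log2 fold changes of 0.93 and 0.79 and were not DEGs, and the DUSP1 interaction was -1.08 and called. The TUBB2A and POLA2 interactions were 0.14 and 0.23 at that dose and not called.

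The genes that fell in both lines had a different makeup, and most were very long. The median span of the 42 was 460 kb (quartiles 141 and 726 kb), compared with 13.9 kb for the 51 genes higher in both that had a span, and 29.1 and 28.3 kb for all genes tested in SUM1315 and MDA-MB-468. TENM1, a teneurin cell adhesion protein at chrX:124375903-125204312, had 48.1, 65.2 and 75.4 adjusted reads in untreated SUM1315 and 7.17, 3.58 and 5.29 with CDDP. In MDA-MB-468 it had 153, 149 and 166 without and 28.2, 38.6 and 21 with CDDP. The log2 fold changes of TENM1 were -3.35 ± 0.43 and -2.42 ± 0.19 (SE). Its interaction of -0.93 was not called by limma but was by edgeR (-1.12) and DESeq2 (-1.16), and it was 1.27 and called with 2 µM CDDP in SUM1315. FAM172A (chr5:93617725-94111699) had 266, 226 and 209 against 31.9, 48.6 and 47.9 in SUM1315, and 121, 101 and 109 against 53.8, 35.4 and 52.1 in MDA-MB-468. CPQ, a secreted carboxypeptidase at chr8:96645242-97143501, had log2 fold changes of -2.57 ± 0.35 and -1.37 ± 0.29. Its interaction of -1.20 was not called without SUM1315 CDDP replicate 2 (-0.81) or control replicate 3 (-1.08), or MDA-MB-468 CDDP replicate 1 (-1.13) or 2 (-1.18) or control replicate 1 (-1.02), or with only the libraries compared. With 2 µM CDDP in SUM1315, the interactions of CPQ and FAM172A were -0.38 and -0.15 and not called. The tumour suppressor FHIT, in a common fragile site, had 13, 31 and 30.9 against 1.05, 0 and 6.44 in SUM1315, and 21.2, 12.8 and 23.1 against 1.31, 1.56 and 2.74 in MDA-MB-468. IMMP2L, a mitochondrial peptidase gene in another fragile site, had log2 fold changes of -3.94 ± 0.36 and -2.34 ± 0.37. FHIT, IMMP2L, CDC45, DKK1 and ATF3 were chosen after their values were seen.

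Genes under 300 kb fell in both lines too, with SLC39A10 among those of 100 to 300 kb. SLC39A10, a zinc importer, had 975, 936 and 1130 untreated against 301, 341 and 282 treated reads in SUM1315. Its MDA-MB-468 values were 171, 212 and 177 against 77.7, 60.4 and 80.3, and the log2 fold changes were -1.71 ± 0.11 and -1.35 ± 0.15. The SLC39A10 interaction, not called, was -0.49 and called without MDA-MB-468 CDDP replicate 2. DHRS2, a short-chain dehydrogenase, fell from 318, 325 and 328 to 48.9, 50 and 46.7 in MDA-MB-468 and from 55, 63 and 27.1 to 14.4, 7.04 and 24.4 in SUM1315. The difference between these changes did not pass the test (interaction 1.04 ± 0.44, limma adjusted p = 0.0632), but it passed by edgeR (1.07) and DESeq2 (1.06), with a pseudocount of 5 (1.20), and without SUM1315 CDDP replicate 2 (1.48) or control replicate 1 (1.18) or 2 (1.27). In SUM1315 at 2 µM, DHRS2 had 63, 49.9 and 27.8, a log2 fold change of -0.03, and its interaction was 2.68. The long noncoding RNA LINC00641 had log2 fold changes of -1.96 ± 0.32 and -1.69 ± 0.27. FAM84A had -1.38 ± 0.38 and -1.41 ± 0.25, and C11orf91 had -1.22 ± 0.30 and -1.23 ± 0.31. In SUM1315, C11orf91 was not a DEG without control replicate 3 (-0.99) or without CDDP replicate 2 (-0.86).

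The share of genes that were lower DEGs was highest among the longest genes in each line. Of 466 genes over 300 kb tested in SUM1315, 212 were lower with CDDP (45.5%) and 4 were higher, with a median log2 fold change of -0.97. Of 389 such genes in MDA-MB-468, 40 were lower (10.3%) and none was higher, with a median of -0.43. Among genes under 10 kb, 10.5% were higher and 6.06% lower in SUM1315, and 3.17% higher and 0.991% lower in MDA-MB-468. At the lower doses, 17.6% of the longest genes were lower in SUM1315 (2 µM) and 2.83% in MDA-MB-468 (1 µM), with medians of -0.44 and -0.20. With a mean of at least 30 adjusted reads, 40% and 5.19% of genes over 300 kb were lower at the higher doses. Reads were counted at 3′ ends, and the spans are those of RefSeq genes, whichever isoform a cell used.

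**Figure D2:**
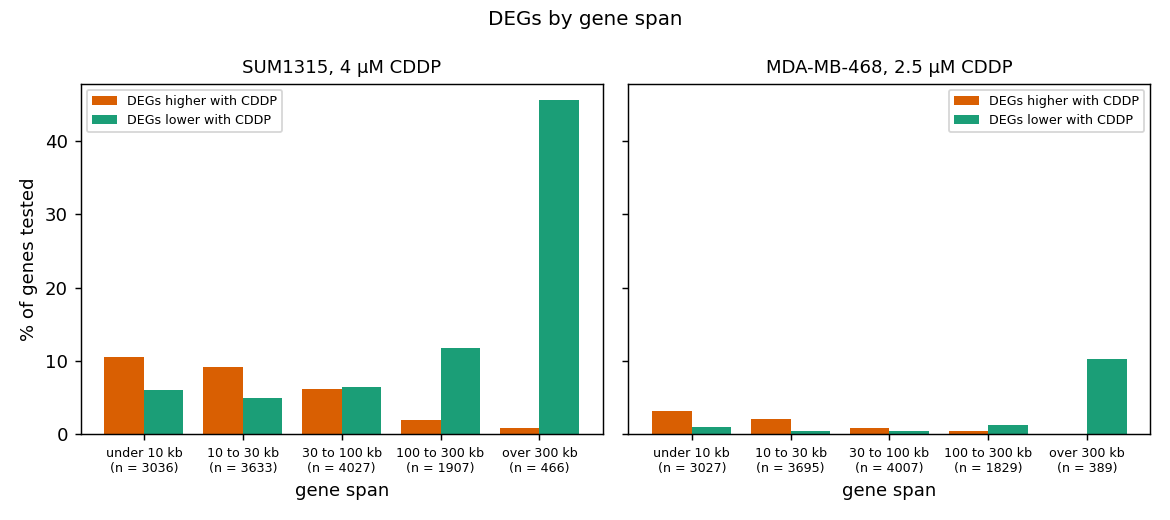
Percent of genes tested that were DEGs higher (orange) or lower (green) with CDDP, by gene span, in SUM1315 (left) and MDA-MB-468 (right), with the number of genes under each bin. Lower DEGs reach 45.5% and 10.3% of genes over 300 kb, and higher DEGs are most frequent among genes under 10 kb, at 10.5% and 3.17%.

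The line interaction, the log2 fold change in SUM1315 minus that in MDA-MB-468, passed the limma adjusted p threshold for 3736 of 11755 genes (31.8%). Of these, 1942 were higher in SUM1315 (16.5%) and 1794 lower (15.3%), and 1343 (11.4%) differed by at least 1 on the log2 scale. The interaction was called for 29 of the 94 genes that moved the same way in both lines, near the 31.8% of all genes. All 16 opposite genes were called too, which largely follows from choosing them by changes past 2-fold in opposite directions. Their calls are therefore no separate result. The interaction was called for 111 of the 344 genes over 300 kb in the lower direction and 15 in the higher, with a median of -0.49.

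On the lower side, 4 of the 6 genes named spanned over 300 kb (SLC39A11, KCNQ1, RPS6KA2 and TRAPPC9). SLC39A11, a zinc transporter at chr17:72645949-73092688, fell from 215, 217 and 299 to 9.23, 9.18 and 6.07 in SUM1315, and in MDA-MB-468 had 431, 486 and 512 untreated and 265, 285 and 264 treated reads. Its interaction was -3.94 ± 0.34 (SE, limma adjusted p = 1.67e-13). KCNQ1, a potassium channel at chr11:2445008-2849105, had 59.2, 56 and 72.3 untreated reads in SUM1315 and 3.05, 0 and 0 with CDDP. The 3 recovered reads with CDDP against 190 untreated gave a ratio of 0.0163 (95% exact interval 0.00334 to 0.0485, counting error only). In MDA-MB-468 KCNQ1 had 56.8, 45.4 and 37.9 against 31.3, 19.7 and 23.2, and it became a DEG there without CDDP replicate 1 (-1.07) or control replicate 3 (-1.03). RPS6KA2, a ribosomal S6 kinase, fell from 210, 212 and 214 to 14.4, 24 and 15.8 in SUM1315 and overlapped between groups in MDA-MB-468, with 139, 123 and 153 against 129, 125 and 145. MAPT, the microtubule protein tau, showed the same contrast, with 40.7, 64.2 and 85.6 against 3.09, 5.57 and 1.67 in SUM1315 and 122, 140 and 123 against 117, 151 and 102 in MDA-MB-468. TRAPPC9, of a vesicle tethering complex, was lower in both lines, by log2 fold changes of -4.98 ± 0.40 and -1.17 ± 0.20. Its MDA-MB-468 value was -0.95, under 2-fold, without CDDP replicate 2. At 2 µM in SUM1315, the interactions of KCNQ1 (-1.12) and TRAPPC9 (-0.91) were not called. RCCD1 is a short gene and had log2 fold changes of -2.83 ± 0.37 in SUM1315 and 0.38 ± 0.09 in MDA-MB-468.

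On the higher side, PEG10, an imprinted gene derived from a retrotransposon, had 218, 186 and 213 untreated reads in SUM1315 and 900, 874 and 841 with CDDP. In MDA-MB-468 the same gene had 2250, 2190 and 2230 untreated and 1230, 1210 and 1110 with CDDP, which gave an interaction of 2.99 ± 0.11 (SE, limma adjusted p = 1.97e-28). EXO1, an exonuclease of mismatch repair and end resection, rose from 36.3, 29 and 15.7 to 244, 235 and 224 in SUM1315. Its MDA-MB-468 values were 292, 217 and 235 against 369, 450 and 359, a log2 fold change of 0.67. DDIAS, a DNA damage-induced apoptosis suppressor, had 50.8, 32.2 and 33.2 against 253, 182 and 226 in SUM1315, and overlapped in MDA-MB-468 with 179, 147 and 124 against 187, 132 and 135. TNFSF15, a TNF family ligand, had log2 fold changes of 2.41 ± 0.59 and -0.78 ± 0.30, and RGS2, a regulator of G protein signalling, had 1.51 ± 0.29 and -0.97 ± 0.19. The small noncoding RNA SNAR-E, which has near-identical copies that could split reads, had 2.21 ± 0.25 and -0.73 ± 0.24. In MDA-MB-468, RGS2 became a DEG without CDDP replicate 2 (-1.24) or control replicate 1 (-1.05), and SNAR-E without CDDP replicate 1 (-1.05). RGS2 was not a DEG in SUM1315 with 2 µM CDDP (0.89).

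The 16 opposite DEGs were lower in SUM1315 and higher in MDA-MB-468. KRT16, a stress keratin of epithelia, fell from 127, 141 and 142 to 45.2, 63.5 and 39.4 in SUM1315 and rose from 24.2, 51.2 and 41.9 to 78, 112 and 104 in MDA-MB-468. Its interaction was -2.83 ± 0.32 (SE, limma adjusted p = 5.03e-10). EDN1, the vasoconstrictor peptide endothelin, had 257, 196 and 203 against 122, 79.1 and 105 in SUM1315, and 174, 267 and 221 against 488, 485 and 465 in MDA-MB-468. PTP4A3, a phosphatase, had log2 fold changes of -1.42 ± 0.53 and 1.01 ± 0.25. The SUM1315 call of EDN1 was lost without control replicate 1 (adjusted p = 0.112) or 3 (0.0565) or CDDP replicate 2 (0.133) or 3 (0.0685), all by limma, and its MDA-MB-468 value was 0.98 without control replicate 1. PTP4A3 lost its SUM1315 call without any 1 library other than control replicate 3 (adjusted p = 0.05 to 0.095), and in MDA-MB-468 its value fell under 2-fold without control replicate 1 (0.82) or 3 (0.98) or CDDP replicate 3 (0.88), or with a pseudocount of 5 (0.93), and was just under 2-fold by edgeR and DESeq2. PTP4A3 at 2 µM CDDP had -0.45 in SUM1315 and its interaction of -1.46 was not called. Among the others, the matrix genes LOXL1 and COL6A1 had 263, 272 and 378 and 1480, 1710 and 2110 untreated reads in SUM1315 but at most 6.18 in untreated MDA-MB-468.

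**Figure D3:**
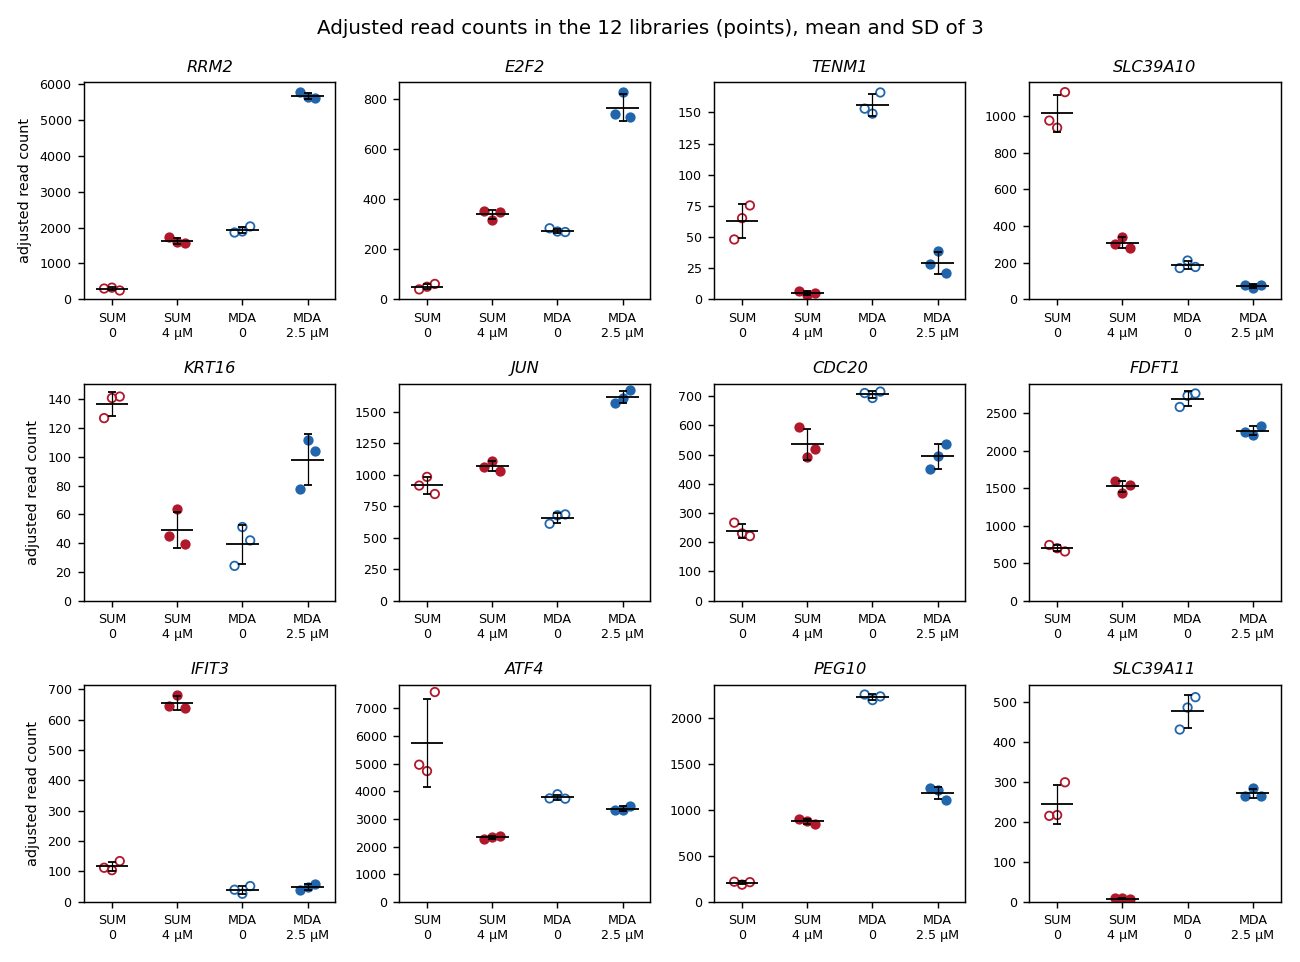
Adjusted read counts (y axis, from 0) of 12 named genes in the 4 groups of 3 libraries, with open points untreated, filled points CDDP, SUM1315 in red and MDA-MB-468 in blue, and bars for the mean and SD. RRM2 and E2F2 rise and TENM1 and SLC39A10 fall in both lines. KRT16, CDC20, FDFT1 and PEG10 have changes of opposite sign in the lines, past 2-fold in MDA-MB-468 for KRT16 only.

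Gene lists, chosen with earlier results of these data known, describe their own members, which are only part of the shared and the differing genes. Over all genes tested, 7.24% rose and 8.16% fell in SUM1315, and 1.64% rose and 0.953% fell in MDA-MB-468. Over the genes tested in both lines, the interaction was higher in SUM1315 for 16.5% and lower for 15.3%. The counts in the lists are to be read beside these shares. Of 30 G1/S and replication genes, 22 of the 29 tested in SUM1315 rose and none fell, and 8 of 30 rose in MDA-MB-468 and none fell. Their median log2 fold changes were 1.29 and 0.77, against -0.003 and 0.009 for all genes. PCNA, the sliding clamp of replication, went from 434, 390 and 304 to 1420, 1480 and 1390 in SUM1315 and from 1220, 1120 and 1210 to 1770, 2020 and 1900 in MDA-MB-468. MCM10, a replication initiation factor, had log2 fold changes of 2.35 ± 0.15 and 0.97 ± 0.09. The interaction was higher in SUM1315 for 19 of 29 members and lower for 1, E2F7, with log2 fold changes of 0.35 in SUM1315 and 1.08 in MDA-MB-468.

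G2/M genes had medians of opposite sign in the lines. In SUM1315, 10 of 30 rose and none fell (median 0.85), and in MDA-MB-468 none rose and 2 fell (median -0.22). Without the 2-fold limit, 26 were higher and 2 lower in SUM1315, and 3 were higher and 15 lower in MDA-MB-468. The interaction was higher in SUM1315 for 26 of 30 and lower for 1, with a median of 1.12. CDC20, the activator of the anaphase-promoting complex, had 267, 230 and 221 untreated and 595, 493 and 519 treated reads in SUM1315. In MDA-MB-468, CDC20 had 711, 694 and 716 untreated and 451, 495 and 537 treated reads, a log2 fold change of -0.52 ± 0.08 (SE). CCNB1, the mitotic cyclin, had 953, 936 and 1010 against 1470, 1410 and 1340 in SUM1315 and 1060, 1100 and 1130 against 720, 703 and 653 in MDA-MB-468. ANLN, a cytokinesis scaffold, rose by 1.24 ± 0.10 in SUM1315 and had -0.09 ± 0.07 in MDA-MB-468. The 2 members that fell in MDA-MB-468 were the mitotic kinesins CENPE (-1.24 ± 0.09) and KIF20A (-1.14 ± 0.12). With 2 µM CDDP in SUM1315, 13 of 30 rose and the interaction was higher for 29, and without SUM1315 control replicate 3 these counts were 7 and 26.

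The promoters of CDC20 and ANLN are shown for the G2/M genes, with TTTGAA, the core of the cell cycle homology region, in capitals where it occurs on either strand. They lie at chr1:43358731-43358980 (+ strand) and chr7:36389612-36389861 (+ strand).
CDC20: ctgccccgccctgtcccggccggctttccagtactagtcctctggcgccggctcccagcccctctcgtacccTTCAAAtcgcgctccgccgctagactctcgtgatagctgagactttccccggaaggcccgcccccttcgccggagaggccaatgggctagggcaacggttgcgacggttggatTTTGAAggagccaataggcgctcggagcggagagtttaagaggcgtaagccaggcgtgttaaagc
ANLN: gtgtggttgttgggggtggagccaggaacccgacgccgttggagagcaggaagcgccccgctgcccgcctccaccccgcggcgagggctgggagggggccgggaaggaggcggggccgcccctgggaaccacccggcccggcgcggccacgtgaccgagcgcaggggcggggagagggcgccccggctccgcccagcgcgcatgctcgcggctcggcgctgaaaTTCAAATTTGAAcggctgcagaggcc
In ANLN the 2 matches are adjacent. TTTGAA was in the 250 bases of 14 of 27 matched G2/M genes (51.9%), 1 of 24 G1/S and replication genes (4.17%) and 735 of 8993 genes tested in both lines (8.17%). TTTGGCG was in 7 of the 24 G1/S and replication genes (29.2%) and in none of the 27 G2/M genes.

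Of 30 homologous recombination and Fanconi genes, 14 rose and 1 fell in SUM1315 (median 0.96), and 4 rose and none fell in MDA-MB-468 (median 0.51). BRCA1 had 201, 202 and 279 untreated and 674, 647 and 621 treated reads in SUM1315, a log2 fold change of 1.52 ± 0.13 (SE). In MDA-MB-468, BRCA1 had 315, 308 and 304 against 434, 465 and 399, with 0.48 ± 0.08. RAD51AP1, a factor of homologous recombination, had log2 fold changes of 1.49 ± 0.14 and 0.53 ± 0.07. The genes that rose in MDA-MB-468 included BRIP1, XRCC3 and FANCG, and RAD51B was the member that fell in SUM1315 (-1.69). The interaction was higher in SUM1315 for 12 of 30 and lower for 1, RBBP8.

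Of 21 nucleotide excision and translesion genes tested, 2 rose in SUM1315 (ERCC8 and UBE2A), where 7.24% of all genes did, and 1 rose (DDB2) and 1 fell (POLI) in MDA-MB-468, where 2.59% of all genes were DEGs. Their medians were 0.04 and -0.07. DDB2, which recognises damaged DNA and is a p53 target, had 153, 156 and 176 against 205, 190 and 168 in SUM1315, where the groups overlapped. In MDA-MB-468, DDB2 rose from 60.8, 67 and 69.7 to 141, 148 and 156 (1.16 ± 0.16). UBE2A, a ubiquitin conjugase of damage tolerance, had 1.03 ± 0.14 in SUM1315 and 0.06 ± 0.06 in MDA-MB-468, and was not a DEG without SUM1315 control replicate 3 (0.81), by edgeR (just under 2-fold) or DESeq2 (0.98), or with 2 µM CDDP (0.90). MAD2L2, a subunit of a translesion polymerase, had 0.25 ± 0.10 and 0.81 ± 0.10. Without that control replicate none of the 21 was a DEG in SUM1315.

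The p53 targets were mixed. In SUM1315, 5 of 29 rose (CDKN1A, PMAIP1, FAS, TP53I3 and BTG2) and 3 fell (ZMAT3, SPATA18 and PHLDA3), and in MDA-MB-468, 1 of 28 rose and none fell, with medians of 0.19 and 0.25. Over all genes, 7.24% rose and 8.16% fell in SUM1315, and 1.64% rose in MDA-MB-468. CDKN1A, the cell cycle inhibitor p21, had 656, 604 and 653 against 1500, 1370 and 1500 in SUM1315 and 34.5, 66.3 and 53.5 against 89.6, 89.8 and 107 in MDA-MB-468. The log2 fold changes of CDKN1A were 1.19 ± 0.08 and 0.92 ± 0.21, and its interaction was 0.27 (limma adjusted p = 0.375). PHLDA3, an inhibitor of AKT, had -1.08 ± 0.11 in SUM1315, which was -0.94 without control replicate 3 and -0.57 with 2 µM CDDP, and 0.24 ± 0.10 in MDA-MB-468. SESN2, a stress-induced sestrin, had -0.76 ± 0.13 and 0.48 ± 0.12, and TRIAP1, a mitochondrial survival factor, had -0.88 ± 0.13 and -0.09 ± 0.07. TRIAP1 became a DEG in SUM1315 without control replicate 2 (-1.04). GADD45A had 0.28 ± 0.12 and 0.81 ± 0.11. The interaction was higher in SUM1315 for 7 of 28 and lower for 9, and for 3 and 9 without SUM1315 control replicate 3. Over all genes tested in both lines, 16.5% were higher and 15.3% lower.

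Of the BCL2 family, 3 of 15 genes fell and 1 rose in SUM1315, where 8.16% and 7.24% of all genes did. None of 15 was a DEG in MDA-MB-468, where 2.59% of all genes were. Without the 2-fold limit 2 were higher there, as were 1737 of all 13012 genes tested. The genes that fell in SUM1315 were the survival factors BCL2, BCL2L1 and MCL1, and the death factor PMAIP1 rose. The medians were 0.13 and 0.14. MCL1 had 8520, 9590 and 6430 against 3480, 3370 and 3520 in SUM1315 and 4050, 4320 and 3920 against 3840, 3780 and 3850 in MDA-MB-468. BCL2L1 had 1340, 1230 and 1980 against 448, 541 and 551 in SUM1315, and 124, 127 and 131 against 105, 114 and 122 in MDA-MB-468. MCL1 was not a DEG in SUM1315 with 2 µM CDDP (-0.68). BBC3, the death factor PUMA, had -0.37 ± 0.11 and 0.46 ± 0.23.

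Some inflammatory genes rose in SUM1315. Of 30 NF-κB targets, 11 rose and none fell there (median 0.71), whereas in MDA-MB-468 only 15 were expressed enough to test, and 1 rose (median 0.19). Of the 15 tested in both lines, the interaction was higher in SUM1315 for 3 and lower for 3, with a median of 0.09. These counts are near the shares of all genes, 16.5% higher and 15.3% lower. BIRC3, an inhibitor of apoptosis, went from 554, 525 and 639 to 1690, 1450 and 1630 in SUM1315 and had 33.3, 12.2 and 26.6 against 45.1, 25 and 35.2 in MDA-MB-468. The BIRC3 interaction of 0.87 ± 0.28 was not called without MDA-MB-468 control replicate 1 (0.59) or CDDP replicate 2 (0.66), or with only the libraries compared. BIRC3 was not a DEG in SUM1315 with 2 µM CDDP (0.63), and its interaction was then 0.03 and not called. IL1A, IL1B, IL32, ICAM1, SOD2 and BCL2A1 did not pass the test in SUM1315, and NFKBIA, RELB and IER3 were lower without the 2-fold limit. TRAF1, a TNF receptor adaptor, rose from 25.9, 19.8 and 41.2 to 137, 112 and 108, and the chemokine CCL20 from 28.4, 61.8 and 22.9 to 158, 141 and 120. Neither gene exceeded 5.11 in an MDA-MB-468 library of these groups. CXCL1 had 604, 702 and 423 against 3600, 4050 and 3580 in SUM1315, and at most 0.787 in MDA-MB-468. The member that rose in MDA-MB-468 was CXCL8, listed at 0 in its 3 untreated libraries and at 9.52, 1.15 and 11.1 with CDDP, against 3540 to 9800 in SUM1315. CXCL8 was a DEG in SUM1315 too, with a log2 fold change of 1.08. Among subunits and regulators, NFKB1 had 0.97 ± 0.10 in SUM1315 and 0.07 ± 0.11 in MDA-MB-468, TNIP1 had 0.59 ± 0.08 and 0.00 ± 0.11, and RELB had -0.69 ± 0.16 and 0.26 ± 0.22. NFKB1 became a DEG in SUM1315 without control replicate 1 (1.00) or 2 (1.07) or CDDP replicate 3 (1.00). With 2 µM CDDP in SUM1315, 4 of 30 rose.

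Of 18 interferon-stimulated genes, 12 were higher and none lower in SUM1315 (median 1.32), and 1 of 15, ISG15, was higher in MDA-MB-468 (median 0.38). The interaction was higher in SUM1315 for 8 of 15 and lower for none. ISG15, a ubiquitin-like modifier, had 235, 237 and 246 against 1090, 1060 and 978 in SUM1315, and 37.7, 42.7 and 28.4 against 64, 96.9 and 108 in MDA-MB-468. Its interaction was 0.85 ± 0.22 at the higher doses and 0.08 with 2 µM CDDP in SUM1315. IFIT3, an antiviral effector, rose from 112, 104 and 134 to 644, 682 and 637 in SUM1315, and had 39.7, 26.5 and 51.7 against 38.7, 49.9 and 57.1 in MDA-MB-468, where the groups overlapped. OAS3, which senses double-stranded RNA, had 2.02 ± 0.20 and 0.67 ± 0.14, and the factor IRF7 had 1.97 ± 0.32 and -0.05 ± 0.22.

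The promoters of ISG15 and IFIT3 are shown because ISG15 rose in both lines and IFIT3 differed between them, with a pair of GAAA separated by any 2 bases, the core of the interferon response element, in capitals on either strand. They lie at chr1:1013247-1013496 (+ strand) and chr10:89327747-89327996 (+ strand).
ISG15: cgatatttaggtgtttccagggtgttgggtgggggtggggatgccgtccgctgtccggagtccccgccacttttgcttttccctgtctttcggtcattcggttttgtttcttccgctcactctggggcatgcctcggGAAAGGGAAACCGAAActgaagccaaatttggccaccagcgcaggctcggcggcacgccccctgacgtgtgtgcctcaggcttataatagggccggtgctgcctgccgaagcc
IFIT3: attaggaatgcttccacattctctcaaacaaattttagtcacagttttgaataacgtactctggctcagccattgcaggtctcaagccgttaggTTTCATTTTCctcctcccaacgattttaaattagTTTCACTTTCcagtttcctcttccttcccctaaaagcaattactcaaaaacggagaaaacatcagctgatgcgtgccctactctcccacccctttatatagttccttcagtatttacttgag
The 2 matches in ISG15 overlap. These letters were in 7 of 11 matched interferon-stimulated genes (63.6%), including genes that passed no test in MDA-MB-468, and in 205 of 8993 genes tested in both lines (2.28%).

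Other lists differed between the lines in single groups of genes. Of 16 cholesterol synthesis genes tested in SUM1315, 5 rose (IDI1, FDFT1, MVD, DHCR7 and STARD4) and none fell (median 0.65), and none of 17 was a DEG in MDA-MB-468 (median -0.27), where 11 were lower without the 2-fold limit. FDFT1, the squalene synthase, had 741, 698 and 655 against 1590, 1440 and 1540 in SUM1315, and 2580, 2730 and 2760 against 2250, 2210 and 2330 in MDA-MB-468. DHCR7, the last enzyme of the pathway, had 1.55 ± 0.13 and -0.14 ± 0.06, and INSIG1, which restrains it, had 0.71 ± 0.10 and -0.70 ± 0.07. The interaction was higher in SUM1315 for 11 of 16 and lower for none.

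Of 28 ATF4 stress response genes, 1 rose and 3 fell in SUM1315 (median -0.36), where 7.24% and 8.16% of all genes did. In MDA-MB-468, 1 rose (median 0.08), where 1.64% of all genes did. The gene that rose in both was ATF3, and ATF4, CHAC1 and ASNS fell in SUM1315. ATF4 itself, the factor of the integrated stress response, had 4960, 4730 and 7590 against 2260, 2360 and 2380 in SUM1315, and 3740, 3890 and 3730 against 3330, 3320 and 3460 in MDA-MB-468. Its untreated SUM1315 level was highest in control replicate 3, and its interaction was -1.10 ± 0.14 (SE). ASNS, the asparagine synthetase, had -1.18 ± 0.14 and -0.04 ± 0.09, and -0.85 with 2 µM CDDP in SUM1315. The interaction was lower in SUM1315 for 14 of 28 and higher for 1, and for 14 and 0 without control replicate 3.

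Immediate early genes split by member. In SUM1315, 4 of 20 rose (FOSL2, KLF4, NR4A1 and ATF3) and 4 fell (JUNB, EGR1, EGR3 and IER2). In MDA-MB-468, 3 of 19 rose (FOSL2, JUN and ATF3) and CTGF fell. The medians were 0.21 and 0.16. JUN, an AP-1 subunit, had 913, 982 and 846 against 1060, 1110 and 1030 in SUM1315 (0.22 ± 0.10, limma adjusted p = 0.0851) and rose from 610, 677 and 684 to 1570, 1610 and 1670 in MDA-MB-468 (1.30 ± 0.08). JUNB fell in SUM1315, from 3880, 4160 and 3050 to 1760, 1870 and 1760, and had 0.17 ± 0.10 in MDA-MB-468. The JUNB value was under 2-fold without control replicate 1 (-0.99) or 2 (-0.94), or with 2 µM CDDP (-0.56). KLF6 had -0.07 ± 0.10 and 0.82 ± 0.11. Of the MAPK feedback genes, 2 of 18 rose in SUM1315 and 2 of 17 in MDA-MB-468, where 7.24% and 1.64% of all genes rose. The medians of the list were 0.21 and 0.11. DUSP1 rose in both, DUSP10 in SUM1315 and DUSP8 in MDA-MB-468. ETV4 had 0.39 ± 0.12 and -0.87 ± 0.29, DUSP5 had -0.80 ± 0.11 and -0.05 ± 0.13, and PHLDA1 had 0.37 ± 0.08 and -0.14 ± 0.11. DUSP6, an ERK phosphatase, had -0.60 ± 0.09 in SUM1315 and 0.28 ± 0.38 in MDA-MB-468, where it had 18.9 to 36 untreated reads. Its interaction of -0.88 was not called by limma (adjusted p = 0.086). It was called by edgeR (-0.87) and DESeq2 (-0.88), with a pseudocount of 5 (-0.84) and with only the libraries compared (-0.88). Without MDA-MB-468 control replicate 1 the DUSP6 interaction was -1.11 and called.

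Of 12 histone genes tested in each line, 2 rose in SUM1315 (HIST1H2BD and HIST1H4H, median of the list 0.12) and 2 fell in MDA-MB-468 (H1F0 and HIST1H3D, median -0.24). The linker histone H1F0 had 1230, 1240 and 1230 against 1290, 1440 and 1300 in SUM1315 and fell from 2830, 2870 and 2810 to 1090, 1170 and 1170 in MDA-MB-468. HIST1H2BD, one of many similar copies, had 1.00 ± 0.30 and -0.50 ± 0.19, and its SUM1315 call was lost without control replicate 1 (0.96) or 2 (0.90) or CDDP replicate 2 (0.90) or 3 (0.84). H3F3B had -0.27 ± 0.09 and 0.08 ± 0.05. Metallothioneins, small metal-binding proteins of similar sequence, were expressed in different forms in the lines. MT1E rose from 166, 167 and 92.4 to 1130, 1140 and 1120 in SUM1315 and was listed at 0 in MDA-MB-468, whereas MT1F rose from 21.2, 26.6 and 43.1 to 77.8, 101 and 90.7 in MDA-MB-468 and was at or near 0 in SUM1315. MT2A had 0.84 ± 0.08 in SUM1315 and 0.01 ± 0.05 in MDA-MB-468, and MT1X had 0.01 ± 0.09 and 0.70 ± 0.12.

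**Figure D4:**
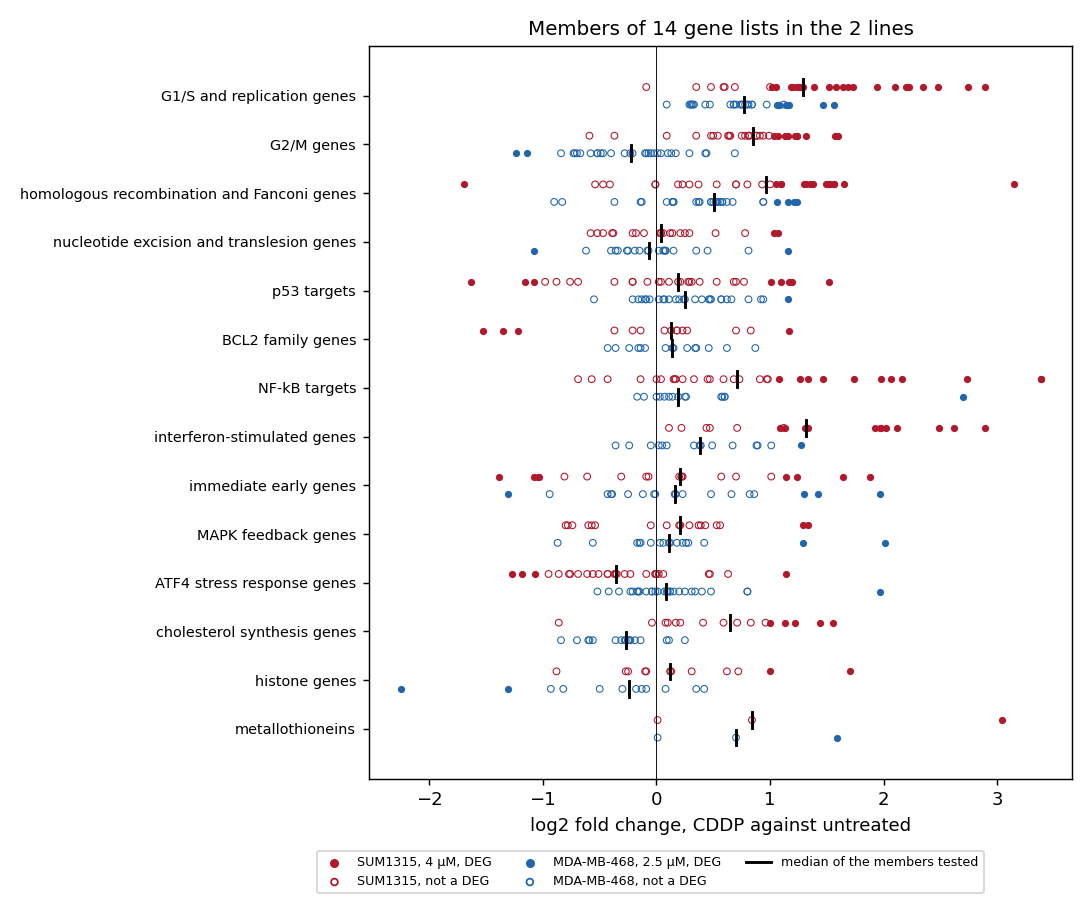
Log2 fold change with CDDP (x axis) of each member tested of 14 gene lists, SUM1315 in red and MDA-MB-468 in blue, with DEGs filled and black ticks at the medians. Medians of G1/S and replication genes are above 0 in both lines (1.29 and 0.77), and those of G2/M genes lie on opposite sides of 0 (0.85 and -0.22).

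Some DEGs were expressed enough to test in 1 line only, 393 of SUM1315 and 84 of MDA-MB-468. SEMA5A, an axon guidance protein, had 337, 338 and 473 against 46.1, 28.2 and 23.5 in SUM1315 and at most 0.713 in MDA-MB-468. CCDC146 had 63.6, 62.2 and 85.7 against 2.05, 1.85 and 0, and SORCS2, a sorting receptor, had 136, 210 and 167 against 20.5, 12.7 and 13.1. ARL14, a small GTPase, rose from 5.46, 2.1 and 4.14 to 88.3, 60 and 77. In MDA-MB-468, the noncoding RNA LINC01447 had 188, 165 and 160 against 16.9, 25.3 and 50.5, and ANKRD1, a muscle stress protein that YAP induces, rose from 19.8, 25.3 and 21.8 to 92, 86.5 and 103. ISPD, of dystroglycan glycosylation, had 64, 83.6 and 94.6 against 26.6, 26.8 and 17.3, and the exchanger SLC24A3 had 55.1, 58.1 and 48.5 against 13.1, 15.2 and 19.5.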

How the data were processed

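RNA was measured in 54 libraries, 12 of which were compared in the 4 groups the labels give. Per the study's methods, 3′ libraries were aligned to hg38, and per the labels STAR, HTSeq and edgeR were used. The deposited signal is reads per gene that the authors brought to a common size of 5585170 reads in edgeR. Whole reads were recovered for 100% of 1483380 values (relative tolerance 1e-06). The authors' own comparisons were not used. Labels and methods give 2.5 µM for MDA-MB-468, the series text another dose, and one label field writes mM.

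Log2 of the value plus 1 was tested with limma 3.58.1 (R 4.3.3, intensity trend), per line over 27 libraries and 9 conditions, for genes with at least 10 in at least 3 libraries. Fold changes of low genes are understated. The interaction came from 1 fit of 54 libraries with no fold limit. P-values were adjusted by Benjamini-Hochberg over all genes tested. The scripts were tested on simulated data. Batch membership of libraries is not given in the sources used here.

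The members, lists and alternatives were chosen with earlier results of these data known. Genes named by rule have a mean of at least 30 and separate groups: 8 shared in each direction, up to 6 opposite (3 qualified), 6 interactions in each direction, 4 per line tested in that line only, and 3 per list by interaction p (mean alone). For interactions, groups had to be separate only in the line with the larger change. Genes the paper names were held to neither limit. Results for some genes are not reported here. Other names were chosen after their values were seen. Alternatives included edgeR 4.0.16 and DESeq2 1.42.0 on recovered reads, other limits, a lower dose, a replicate block and leaving out each library. Spans and promoters are from RefSeq (GRCh38.p14). Strand use in counting is not given in the sources used here, so overlapping genes are uncertain.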

Additional observations from a re-analysis of the deposited data

Results flagged for a closer look

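The interaction, the log2 fold change in SUM1315 minus that in MDA-MB-468, passed the limma adjusted p threshold for 3736 genes, and the genes named here are those of them chosen by the naming rules on shared, opposite and differing genes. Doses differed between the lines for each of them. Among genes higher in both lines, the interaction was 0.92 for RRM2, 1.27 for E2F2, 0.70 for TUBB2A, 1.15 for TK1, 0.85 for ISG15 and 0.56 for POLA2. Among genes lower in both it was -1.20 for CPQ and -1.21 for FAM172A. For the opposite genes it was -2.83 for KRT16, -2.24 for EDN1 and -2.43 for PTP4A3. The positive differences were 3.19 for TNFSF15, 2.99 for PEG10, 2.94 for SNAR-E, 2.49 for EXO1, 2.48 for DDIAS and 2.48 for RGS2. The negative differences were -4.41 for KCNQ1, -3.94 for SLC39A11, -3.82 for MAPT, -3.81 for TRAPPC9, -3.46 for RPS6KA2 and -3.20 for RCCD1. With 2 µM CDDP in SUM1315 in place of 4 µM, 8 of these were not called: TUBB2A (0.14), ISG15 (0.08), POLA2 (0.23), CPQ (-0.38), FAM172A (-0.15), PTP4A3 (-1.46), KCNQ1 (-1.12) and TRAPPC9 (-0.91).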

How the results depend on the processing

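The counts kept within 1.5 times of their values with edgeR (1988 SUM1315 and 390 MDA-MB-468 DEGs) and DESeq2 (2048 and 388) on recovered reads, of which 1904 and 319 (edgeR) and 1916 and 318 (DESeq2) were also limma DEGs. Without the filter, SUM1315 had 3103 DEGs, 2132 of them lower. Without the fold limit there were 5771 in SUM1315 (2916 higher and 2855 lower) and 3269 in MDA-MB-468 (1737 and 1532), with 735 higher in both, 581 lower in both and 398 opposite. At 4-fold there were 437 (132 and 305) and 42 (23 and 19), with 1, 9 and 0 shared. With 2 µM CDDP, SUM1315 had 1155 DEGs, 444 of them lower, with 26 lower in both, 8 opposite and 1076 interactions lower in SUM1315. A pseudocount of 5 also left 8 opposite genes. Interactions of at least 1 numbered 1343 (610 and 733). Of genes over 300 kb, 40% and 5.19% were lower at a mean of at least 30, and 17.6% and 2.83% at the lower doses. The interaction of TENM1 was 1.27 and that of H3F3B 0.10 with 2 µM CDDP, against -0.93 and -0.35. The causes were not tested.

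Leaving out each library gave 1674 to 2066 SUM1315 DEGs (771 to 1041 higher, 903 to 1031 lower), 303 to 332 in MDA-MB-468 (188 to 213 and 107 to 142) and 3254 to 3805 interactions (1675 to 2033 and 1567 to 1772). Shared genes numbered 43 to 60 higher, 36 to 43 lower and 11 to 22 opposite. Same-numbered replicates did not deviate together (correlations -0.0468 to 0.0312), and the replicate block gave 2023 and 333 DEGs and 3727 interactions. Of the other results and settings, 3827 were unchanged in call, 153 lost the call and 75 gained it. Among the 3827, called results kept their sign, but results that were not called could change sign. List counts were taken as unchanged within 1.5 times, and otherwise as lost if lower or gained if higher.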
